A study of Mus musculus with 23 samples.

Results

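The transcription factor gene Myc and 37 genes of ribosome production were followed through mouse B cells before culture, after activation and as antibody-secreting plasmablasts, with and without a guide RNA against Irf8. The 38 genes were taken by symbol from a fixed list of nucleolar, rRNA-processing and RNA polymerase I genes plus Myc, by a rule that uses no measured value. All 38 were found in both deposited tables, among 11548 genes listed for naive cells and 10574 genes listed for cultured cells. All 38 also passed the filter on low values, which asked for 1 RPKM or more in at least 2 libraries of a table. RPKM is the number of reads of a gene scaled to its length and to the total reads of the library.

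The cells came from mouse spleen, and polyA RNA was sequenced in 23 libraries of 8 groups. WT cells carried no guide and were sorted as Thy1.1-, whereas KO cells carried an Irf8 guide and were sorted as Thy1.1+, so genotype, guide and Thy1.1 gate cannot be told apart. Naive cells, sorted as CD11b-F4/80-Thy1.2-B220+ and left untreated, gave 3 WT and 3 KO libraries in each of 2 arms, lettered A to C, with guide 1 in the first arm and guide 2 in the second. Activated B cells, 3 WT and 3 KO libraries numbered 1 to 3, were B220+GL7+CD138- cells from naive cells cultured for 72 hours with IL-2 (20 ng/ml), IL-5 (5 ng/ml) and LPS (20 mg/ml in the labels' wording). Plasmablasts, 2 WT and 3 KO libraries, were the CD138+ cells of that culture, and their cell type label reads plasma cell. KO cells of the culture carried guide 1. There was no group with a guide to a different gene, and strain, age and any allele shared by the groups are not given in the sources used here. The library numbers recur across genotype and state in the cultured titles, and the letters recur across WT and KO in the naive titles. What these numbers and letters stand for is not given, so the main tests left them out and a replicate block was run as an alternative. Nothing says that libraries of a group came from separate animals or cultures, so the tests below measure the spread between these libraries.

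Ribosomes are built mainly in the nucleolus, where RNA polymerase I transcribes the ribosomal RNA precursor. Small nucleolar ribonucleoproteins (snoRNPs) modify that RNA, and assembly factors cut, fold and package it into the small and the large subunit. MYC is a basic helix-loop-helix leucine zipper protein that binds the E-box hexamer CACGTG together with MAX and is known to raise transcription of many ribosome production genes when B cells are stimulated to grow and divide. Plasmablast differentiation is known to involve BLIMP1, encoded by Prdm1, which represses Myc, and IRF8 is a transcription factor of the B cell lineage.

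Start-site windows of the members were searched for the hexamer to which MYC binds. The stretches around each match are shown because they hold the best known MYC site, which only a minority of the members had. Windows ran from 250 bases before to 50 bases after an annotated start in RefSeq (GRCm38.p6), and 31 of the 38 members had 35 windows. Myc, Fbl, Npm1, Rrp12, Bop1, Rrs1 and Srm had no entry. CACGTG, which reads the same on both strands, lay in 7 of the 35 windows (20.0%), against 10.03% of 12165 windows of genes in the deposited tables. The 7 stretches of 30 bases below run 5′ to 3′ on the gene's strand, with the hexamer in capitals.
Mybbp1a (chr11:72441347-72441376, plus strand): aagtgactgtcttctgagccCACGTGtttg
Wdr43 (chr17:71616220-71616249, plus strand): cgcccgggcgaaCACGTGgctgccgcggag
Utp20 (chr10:88826765-88826794, minus strand): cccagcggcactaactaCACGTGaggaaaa
Tsr1 (chr11:74898092-74898121, plus strand): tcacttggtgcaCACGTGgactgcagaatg
Pes1 (chr11:3963965-3963994, plus strand): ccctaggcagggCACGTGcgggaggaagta
Nop2 (chr6:125131811-125131840, plus strand): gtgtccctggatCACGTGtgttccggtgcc
Mdn1 (chr4:32657139-32657168, plus strand): caacgtgaattccttcacCACGTGtgtgtc
The hexamer began 2 to 40 bases after the start in the 6 members other than Nop2. The printed stretches of these members overlapped an annotated exon of some gene on either strand. In Nop2 the hexamer began 60 bases before the start. Upstream of the start alone 1 of 35 member windows (2.86%) held the hexamer, against 8.32% of the windows of genes in the tables. The related hexamer CACGCG, searched on both strands, lay in 31.4% of the member windows and in 17.0% of the windows of genes in the tables. A match is a description of the letters and no evidence of binding.

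Some libraries stood apart and touch the results below. Irf8 RNA was lower in the KO libraries of naive cells (47.6 to 77.7 RPKM) than in the WT libraries (79.8 to 98.0), and it overlapped in plasmablasts (17.5, 21.4 and 24.2 in KO, 24.6 and 17.6 in WT). Activated libraries 1 and 2 had 108 and 93.6 in WT and 69.2 and 68.1 in KO. Thy1 was 8.88 RPKM or more in every naive KO library. In activated libraries 1 and 2 it was 21.9 and 27.8 in KO and 0.013 and 0.055 in WT. In plasmablasts it was 32.8, 40.7 and 35.9 in KO and 0.057 and 0.142 in WT. The activated library 3 labelled WT had Thy1 at 25.7 and Irf8 at 60.0 RPKM, and the activated library 3 labelled KO had Thy1 at 0.093 and Irf8 at 92.4 RPKM, which goes against both labels. Library depth in gene reads, read off the step between low RPKM values, was 14500000 to 22200000 in naive and 4320000 to 26900000 in cultured libraries, except 51300 in plasmablast KO library 3. That library held a median of 3.0 reads per member, with 5 members at 0 reads (Myc, Gar1, Nhp2, Nop16 and Noc2l), and each member had at least 66.0 reads in every other library. Guide 1 KO library A of the naive cells listed 1405 genes at 0, against 66 to 291 in the other naive libraries, and arm 1 WT library A had Thy1 at 4.93 RPKM, against 0.052 or less in the other naive WT libraries. Defining B cell markers were high in every group (summed level of the 6 listed ones 628 to 3504 RPKM). Sdc1, which encodes CD138, was 27.5 to 34.1 RPKM in plasmablasts other than KO library 3 (3.03) and 0.226 to 0.790 in activated cells. The 10 plasma cell markers, Sdc1 and Prdm1 among them, summed to 1172 to 2963 RPKM in WT and 1646 to 2079 in KO activated libraries. In plasmablasts the sums were 3048 to 5374 in WT and 2120 to 3677 in KO. Prdm1 itself overlapped between the WT states, at 56.7, 71.4 and 94.6 RPKM in activated and 69.6 and 76.6 in plasmablast libraries.

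**Figure D1:**
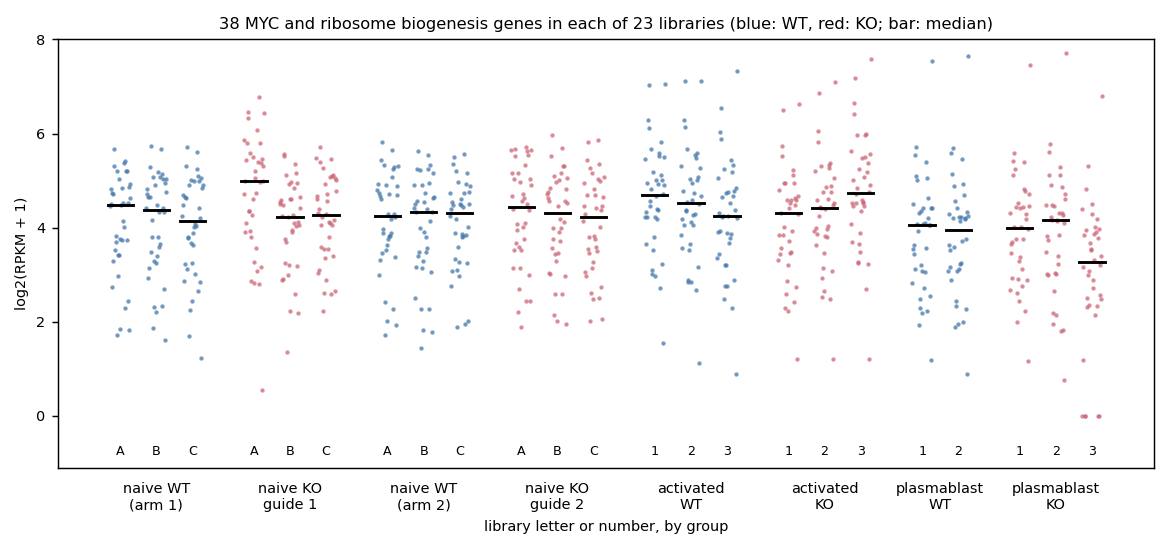
Each point is 1 of 38 genes in 1 library, on the vertical axis as log2(RPKM + 1), with libraries side by side by group, WT in blue and KO in red, and the black bar at the median of the 38 genes. The medians of plasmablast libraries 1 and 2 (3.95 to 4.15) lie below those of activated cells (4.24 to 4.74), naive guide 1 KO library A is highest (4.98), and plasmablast KO library 3, with 51300 reads, is lowest (3.26).

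Within a cell state the members spanned a wide range of levels. Per length and in mean RPKM of WT activated B cells, Srm (spermidine synthase, an enzyme of polyamine production) was highest at 143 ± 15.1 (SD, n = 3), followed by Npm1 (nucleophosmin, an abundant nucleolar chaperone) at 119 ± 24.3. The distance between the means was within the SD of Npm1 and beyond that of Srm, and the libraries of the 2 genes overlapped in range. Nhp2 (a core protein of the box H/ACA snoRNPs) followed at 72.6 ± 7.04 and Ncl (nucleolin) at 65.5, and Mdn1 (midasin, a very large ATPase of large subunit maturation) was lowest at 1.33. Levels between genes rest on the gene lengths in the deposited tables, and some of these exceed the annotated span of the gene on GRCm38. The length listed for Myc is 8315 bases (span chr15:61985341-61990361), and that for Nop56 is 15263 bases (span chr2:130274367-130279313). Gnl3, Nolc1 and Ppan were also listed with lengths beyond their spans, so the levels of these genes beside other genes are uncertain.

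Naive and cultured cells were in tables that were normalized separately, so levels across them are given without a test. The members were on the whole higher in activated than in naive cells, by a median of 0.34 on the log2(RPKM + 1) scale in WT means, with 31 of 38 higher, against a median of -0.03 and 48.1% higher over 10178 genes in both tables. Srm stood at 30.3 RPKM in naive WT, 143 in activated WT and 192 in plasmablast WT cells. Npm1 stood at 50.3 in naive, 119 in activated and 50.9 in plasmablast cells, so its plasmablast level was near its naive level. Nhp2 followed the order naive 23.4, plasmablast 46.3 and activated 72.6 RPKM. Myc did not follow the majority, at 20.8 RPKM in naive, 13.4 in activated and 6.76 in plasmablast WT cells. In plasmablasts 29 of the 38 were lower than in naive cells, by a median over the members of -0.31, against -0.16 over all genes. As reads are scaled to each library's total, less RNA per cell and fewer cells of a kind cannot be told apart in these bulk samples.

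**Figure D2:**
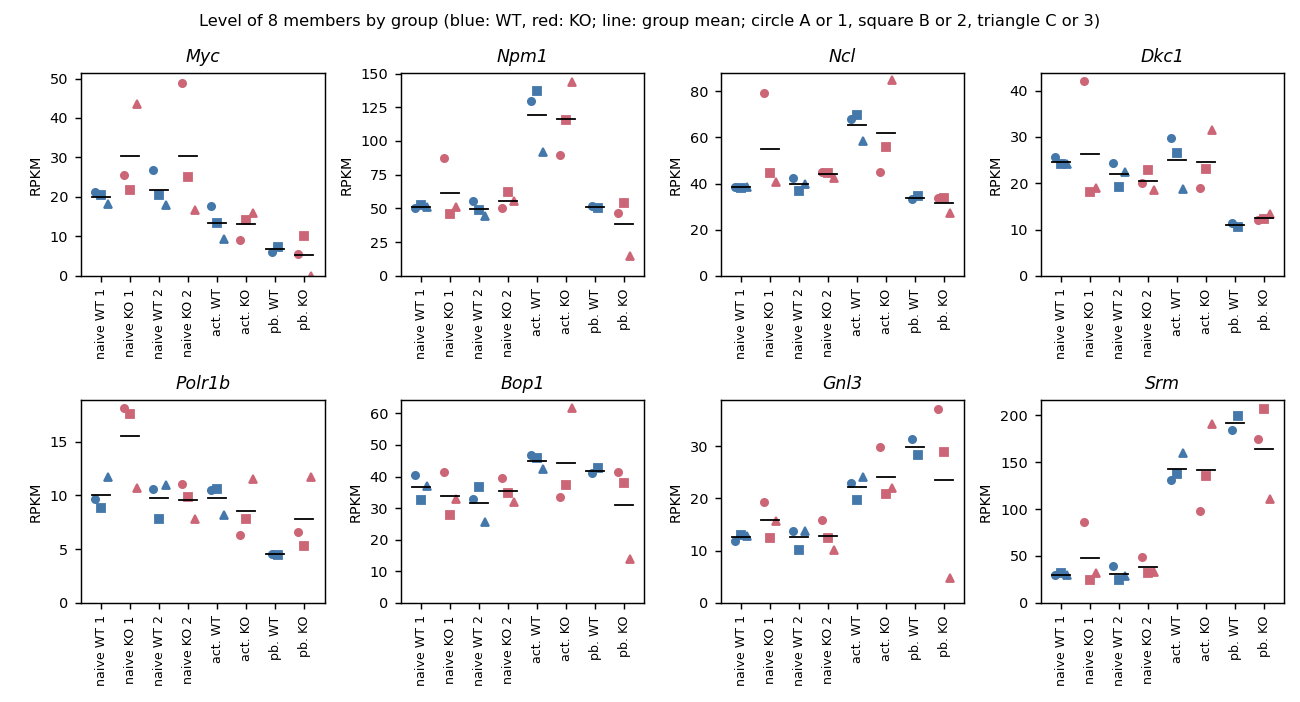
RPKM of 8 members (vertical axes, from 0) in each library of the 8 groups (horizontal axis), WT in blue and KO in red, with circles for library A or 1, squares for B or 2, triangles for C or 3 and a line at the group mean. Npm1, Ncl, Dkc1 and Polr1b are lower in WT plasmablasts than in WT activated cells, Gnl3 and Srm are higher there, and Bop1 touches between the states. The group means of Myc are highest in naive cells, whose libraries overlap in range with those of activated cells.

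The comparison of WT plasmablasts with WT activated B cells asked which members change as activated cells become antibody-secreting cells. With the 5 libraries concerned, 36 of the 38 members were lower in plasmablasts, by a median of -0.71 on the log2(RPKM + 1) scale, against -0.12 over all 9986 genes tested, of which 61.7% were lower. In 32 members both plasmablast libraries lay below all 3 activated libraries (36.8% of all genes), and in 2, Gnl3 and Srm, they lay above (21.6%). None of the 38 was called by limma at an adjusted p under 0.05, where 1.76% of all genes were called. At an unadjusted p under 0.05, 12 members passed, against 13.7% of all genes. This fit shares 1 spread with plasmablast KO library 3. Without that library 27 members were called lower (21.4% of genes) and 0 higher, and without it and both activated libraries 3, 32 members were called lower (30.7% of genes) and 2 higher (15.5%), with a median of -0.81 over the members and -0.16 over all genes.

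The Myc transcript was among those that fell without these 3 libraries. Myc was at 17.6, 13.4 and 9.20 RPKM in activated WT libraries 1 to 3 and at 6.11 and 7.40 in plasmablast WT libraries 1 and 2, so the groups did not overlap. The difference was -1.08 ± 0.25 (SE; limma adjusted p = 0.00301) without the 3 libraries and -0.86 ± 0.82 (limma adjusted p = 0.792) with all libraries. Median scaling took from each remaining library the median, over genes, of its deviation from the gene's mean on the log2(RPKM + 1) scale. With this setting, chosen after seeing the data, the Myc difference was -0.93 (limma adjusted p = 0.0108).

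Both RNA polymerase I subunits were called lower without the 3 libraries. Polr1b, the second largest subunit, was at 10.5, 10.6 and 8.20 RPKM in activated WT cells and at 4.56 and 4.44 in plasmablasts. Each plasmablast value was thus well below the lowest activated value, and the difference was -1.07 ± 0.15 (limma adjusted p = 8.88e-05). Polr1a, the largest subunit, differed by -0.67 ± 0.18 (limma adjusted p = 0.00806).

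All 6 snoRNP proteins were lower in WT plasmablasts, and 5 of them were called lower without the 3 libraries. Dkc1, the pseudouridine synthase of the box H/ACA particle, was at 29.8, 26.6 and 18.7 RPKM in activated and 11.5 and 10.5 in plasmablast WT libraries. Gar1, its partner, was at 17.7, 15.7 and 14.1 against 7.64 and 6.41, and Nhp2 at 76.7, 76.6 and 64.4 against 45.9 and 46.8. All 3 box H/ACA proteins were separated between the states, with differences of -1.29 ± 0.12 for Dkc1 (limma adjusted p = 4.04e-06), -1.14 for Gar1 and -0.71 for Nhp2. Fbl, fibrillarin, the methyltransferase of the box C/D particle, was at 42.8, 38.9 and 32.5 RPKM in activated cells and at 21.6 and 18.5 in plasmablasts, a difference of -0.99 ± 0.14 (limma adjusted p = 9.10e-05). Of its 2 partners, the scaffold protein Nop56 was called lower (-0.68) and Nop58 was not (-0.30 ± 0.16, limma adjusted p = 0.150). The span of Nop56, introns included, overlaps that of Idh3b on the opposite strand. Whether reads were counted by strand is not stated, so reads from any shared exon could not be told apart. Overlap of exons was not examined. The same holds for 16 of the 38 members in all, which include Dkc1, Nhp2, Polr1a, Mybbp1a, Rrp1b, Gnl3, Rrp9, Heatr1, Wdr43, Nop14, Tsr1, Bop1, Pes1, Wdr12 and Noc2l.

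The nucleolar proteins outside these particles held both the member that fell most and one that rose. Npm1 was at 129.6, 137 and 91.6 RPKM in activated and at 51.4 and 50.4 in plasmablast WT libraries. Its difference was -1.37 ± 0.13 (limma adjusted p = 2.63e-06). Mybbp1a, a MYB-binding nucleolar protein, was at 49.8, 50.02 and 37.2 against 18.8 and 22.7, a difference of -1.23 ± 0.13 (limma adjusted p = 9.18e-06). Rrp1b (-1.02), Ncl (-1.01) and the RNA helicase Ddx21 (-0.93) were also called lower, and the chaperone Nolc1 was not (-0.26 ± 0.14, limma adjusted p = 0.145). Gnl3, nucleostemin, a nucleolar GTPase, was at 22.9, 19.6 and 24.0 RPKM in activated cells and at 31.3 and 28.3 in plasmablasts. It was thus higher in both plasmablast libraries, by 0.47 ± 0.16 (limma adjusted p = 0.0301). Its span overlaps that of Pbrm1 on the opposite strand, with the same limit on reads from any shared exon.

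Assembly factors of both subunits moved the same way. All 10 small subunit factors were called lower without the 3 libraries, from -1.18 for Rrp12, -1.16 for Rrp9 and -1.09 for Heatr1 to -0.31 for Nop14. Wdr43, the most abundant of them in the mean over the 23 libraries, was at 35.6, 31.6 and 25.5 RPKM in activated and at 19.5 and 20.3 in plasmablast WT libraries, a difference of -0.73 ± 0.11 (limma adjusted p = 0.000150). Of the 11 large subunit factors 9 were called lower, from -1.04 for the rRNA methyltransferase Nop2 and -0.999 for Rrs1 to -0.46 for Ppan. Pes1, pescadillo, was at 45.0, 43.4 and 35.4 against 32.2 and 29.4, a difference of -0.51 ± 0.11 (limma adjusted p = 0.00282). Bop1, which forms a complex with Pes1 and Wdr12, was at 46.8, 45.7 and 42.4 RPKM in activated and at 41.0 and 42.7 in plasmablast cells. These groups touched, and Bop1 was not called (-0.14 ± 0.10, limma adjusted p = 0.273), nor was Mdn1 (-0.30 ± 0.20). After median scaling Bop1 stood at 0.02, so its direction was not fixed.

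Srm went against most members. It was at 131, 138 and 159.9 RPKM in activated and at 184 and 199 in plasmablast WT libraries, a difference of 0.51 ± 0.15 (limma adjusted p = 0.0129) without the 3 libraries and 0.42 ± 0.34 (limma adjusted p = 0.719) with all. Gnl3 and Srm were also called higher after median scaling, at 0.63 and 0.67.

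**Figure D3:**
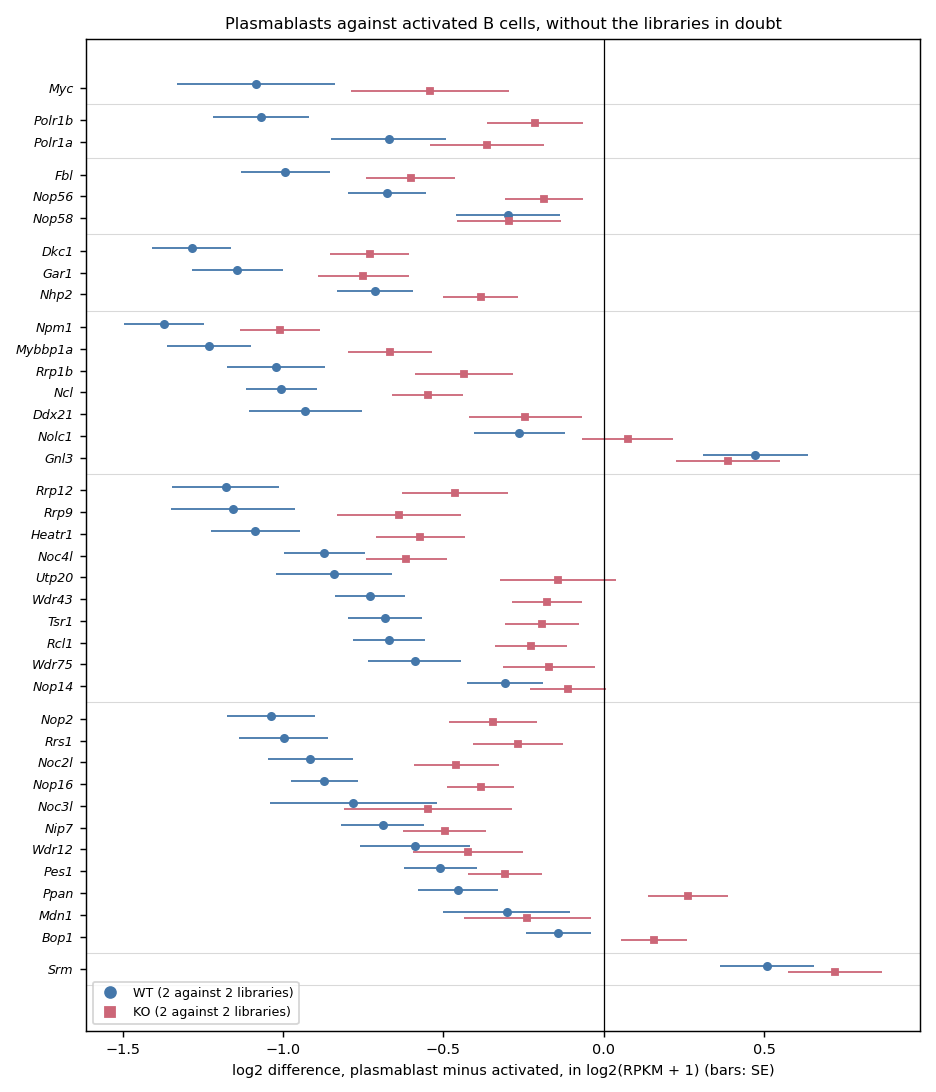
Difference between plasmablasts and activated B cells in log2(RPKM + 1) (horizontal axis) for the 38 members (vertical axis, ordered by role and then by the WT value), as WT circles and KO squares with bars of 1 SE, from the fit without activated libraries 3 and plasmablast KO library 3. Most points lie left of 0, from -1.37 for Npm1 in WT, with Gnl3 and Srm to the right in both genotypes.

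Genes of the same pathway outside the 38 had lower calls in most lists. Without the 3 libraries, 30 of 45 other small subunit factors were called lower and 1 higher by limma in WT plasmablasts, with Pno1 at -1.05, Pwp2 at -1.02 and Utp4 at -0.91, and Utp23 at 0.45. Of 51 other large subunit factors 30 were lower and 0 higher, led by Rrp15 (-1.11), Rsl1d1 (-0.90) and Gtpbp4 (-0.85). Of 14 other RNA polymerase I genes 9 were lower, with the subunits Polr1g at -0.98 and Polr1c at -0.90 and the regulator Tcof1 at -0.87. Other snoRNP factors had 7 of 11 lower (among them Nop10 at -0.84 and Znhit6 at -0.83) and 1 higher (Znhit3 0.54), and the RNA exosome, which trims rRNA precursors, had 10 of 13 lower (Dis3 -0.80). Their medians ran from -0.58 to -0.39, against -0.16 over all genes, of which 30.7% were called lower and 15.5% higher. With all libraries, none of these 5 lists held a gene that was called.

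The list of MYC's network held more higher than lower calls in the fit without the 3 libraries, and no call with all libraries. Without the 3 libraries 5 of 15 genes tested were called higher and 1 lower, beside 15.5% of all genes called higher and 30.7% lower. Fbxw7, a ubiquitin ligase subunit that marks MYC for degradation, was at 0.78 ± 0.15 (limma adjusted p = 0.00113). Mxd4 (0.75) and Mxi1 (0.72), which encode proteins that compete with MYC for MAX, were called higher as well, and the kinase Cdk9 was lower (-0.47). Of 38 growth and metabolic genes known as MYC targets 25 were called lower and 6 higher in the same fit, the latter a share near that of all genes. Apex1, a DNA repair endonuclease, was at -1.56, the mitochondrial chaperone Hspd1 at -1.46 and spermine synthase, Sms, at -1.43. Impdh1, an enzyme of guanine nucleotide synthesis, rose by 1.46 ± 0.12 (limma adjusted p = 9.41e-07), and it was also called with all libraries (1.31, limma adjusted p = 0.0453). Slc3a2, the heavy chain of amino acid transporters, rose by 1.19. The 2 polyamine enzymes of these lists thus went in opposite directions, Srm up and Sms down.

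KO plasmablasts differed from KO activated cells in the same direction. With all 6 libraries 35 of 38 members were lower, by a median of -0.67 (all genes -0.22), and 18 lay below without overlap (22.8% of genes) with 0 above (7.35%). Of these 18, Gar1 would overlap if library 3 held 3 reads in place of 0. No member was called by limma (3.44% of genes were), and 15 passed an unadjusted p under 0.05 (21.2%). Without the 3 libraries 15 members were called lower (21.5% of genes) and 1 higher (12.1%), with a median of -0.36 over the members and -0.10 over all genes. By role these were 3 of 3 box H/ACA proteins, 1 of 3 box C/D proteins, 4 of 7 other nucleolar proteins, 4 of 10 small and 3 of 11 large subunit factors, 0 of 2 RNA polymerase I subunits, and Srm as the member called higher.

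Values by library show how far the KO states were apart. Npm1 was at 89.9, 115 and 144 RPKM in the activated libraries labelled KO and at 46.7, 53.7 and 14.5 in plasmablast KO libraries 1 to 3. Dkc1 was at 18.9, 23.1 and 31.4 against 12.04, 12.4 and 13.4, and Gar1 at 10.8, 13.6 and 21.1 against 6.67, 6.95 and 0, where 3 reads of that last library would be 17.0 RPKM. Npm1 and Dkc1 were separated with or without the third libraries, and Gar1 without them, at -1.01 ± 0.13 for Npm1 (limma adjusted p = 5.97e-05), -0.73 for Dkc1 and -0.75 for Gar1 without them. Myc was at 8.95, 14.2 and 15.9 against 5.43, 10.1 and 0, where 3 reads would be 7.03 RPKM. Its groups overlapped in libraries 1 and 2, and it was not called (-0.54 ± 0.25, limma adjusted p = 0.111).

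Of the members with the highest mean level of the other roles, some were called in KO cells and some were not. Fbl was at 26.9, 36.04 and 48.7 RPKM in activated libraries labelled KO and at 19.0, 21.5 and 20.2 in plasmablasts, and Nhp2 at 52.6, 65.2 and 98.8 against 41.8, 47.7 and 0, where 3 reads would be 33.2 RPKM. Both were separated and, without the third libraries, called lower, at -0.60 ± 0.14 for Fbl (limma adjusted p = 0.00516) and -0.38 ± 0.12 for Nhp2 (limma adjusted p = 0.0229). Polr1b was at 6.27, 7.78 and 11.6 against 6.55, 5.27 and 11.7, so its groups overlapped, and it was not called (-0.21 ± 0.15, limma adjusted p = 0.297). Wdr43 was at 23.01, 25.9 and 36.8 against 21.9, 21.1 and 10.7 (-0.18 ± 0.11, limma adjusted p = 0.238), and Pes1 at 36.6, 39.0 and 44.4 against 27.4, 33.5 and 17.2 (-0.31 ± 0.11, limma adjusted p = 0.0540). These 2 were lower in each plasmablast library than in each activated one, but neither was called.

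Without the third libraries, the 3 highest differences in KO plasmablasts were those of Srm, Gnl3 and Ppan. Srm was at 97.7, 136 and 191 RPKM in activated libraries labelled KO and at 175, 207 and 111 in plasmablasts, and rose by 0.72 ± 0.15 (limma adjusted p = 0.00240) without the third libraries. Gnl3 was at 29.8, 20.7 and 21.9 against 37.2, 28.9 and 4.68, a difference of 0.39 ± 0.16 that was not called (limma adjusted p = 0.0856). Ppan, a factor of large subunit assembly, was at 18.5, 21.9 and 28.8 against 25.2, 23.5 and 4.63, at 0.26 ± 0.12 (limma adjusted p = 0.127). After median scaling both were called, Gnl3 at 0.49 and Ppan at 0.36, and 10 members were called lower. In that setting 1697 of 9861 genes were called higher and 1701 lower. Without the third libraries the states were separated in Srm and Ppan and overlapped in Gnl3, while plasmablast KO library 3, with few reads, was below every activated library in Gnl3 and Ppan.

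In the other pathway lists the KO comparison held 13 of 45 small subunit, 11 of 51 large subunit, 4 of 14 RNA polymerase I, 4 of 11 snoRNP and 5 of 13 exosome genes called lower by limma without the 3 libraries, and 1, 0, 0, 0 and 1 called higher, beside 21.5% of all genes called lower and 12.1% higher. In the MYC network 4 were higher and 2 lower, among them Max, the partner of MYC, at -1.08 ± 0.29 (limma adjusted p = 0.0116). Among the growth and metabolic targets 15 were lower and 7 higher. With all libraries Impdh2 (-1.05, limma adjusted p = 0.0336) and Polr1c (-0.94, limma adjusted p = 0.0482) were called.

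The effect of the Irf8 guide in activated B cells was addressed by the comparison of the libraries labelled KO with those labelled WT, and its result turned on libraries 3. With all 6 libraries 0 of 38 members were called by limma and 0 passed an unadjusted p under 0.05, no gene at all was called (0.0%), the median was -0.05, and no member was separated between the groups (1.22% of all genes lay below and 1.91% above). In libraries 1, KO was lower than WT in 37 of 38 members, with a median of -0.53. In libraries 2 it was lower in 33, with a median of -0.20. In libraries 3 the library labelled KO was higher in 37 of 38, with a median of 0.57. Over all genes the share lower in KO was 53.9%, 46.9% and 43.9%, and the medians lay between -0.02 and 0.04.

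Single members show the same turn. Npm1 was 89.9 in KO and 129.6 in WT libraries 1, 115 and 137 in libraries 2, and 144 and 91.6 RPKM in the libraries 3 labelled KO and WT. Mybbp1a was 29.7 and 49.8, then 38.6 and 50.02, then 61.5 and 37.2. Myc was 8.95 and 17.6, then 14.2 and 13.4, then 15.9 and 9.20. In libraries 2 Myc was thus slightly higher in KO, unlike Npm1 and Mybbp1a.

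Without the libraries 3 and plasmablast KO library 3, 37 of 38 members were lower in KO activated cells, by a median of -0.38, against -0.01 over all genes. In 31 of them both KO libraries lay below both WT libraries (24.9% of all genes), and in 0 they lay above (24.1%). None was called by limma, where 0.71% of genes were called, and 26 passed an unadjusted p under 0.05 (1185 of 9861 genes). Rrp12 had the lowest difference (-0.61 ± 0.17, limma adjusted p = 0.126), and the lowest adjusted p was that of Mybbp1a (-0.55 ± 0.13, limma adjusted p = 0.0820), followed by Ncl (-0.46 ± 0.11) and Wdr43 (-0.44 ± 0.11), both at a limma adjusted p of 0.0876. Myc was at -0.41 ± 0.25 (limma adjusted p = 0.567). Gnl3, at 0.22 ± 0.16, was the member on the other side. The roles did not stand apart, with medians of -0.46 for the nucleolar proteins, -0.41 for box H/ACA, -0.40 for small subunit, -0.38 for RNA polymerase I, -0.36 for large subunit and -0.35 for box C/D genes. No gene of the 7 other pathway lists was called in this comparison with or without these libraries.

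Plasma cell markers moved against the members across the activated libraries. Their summed level (10 of 10 listed) was 2079 and 1938 RPKM in KO libraries 1 and 2 and 1172 and 1630 in WT libraries 1 and 2, and 1646 and 2963 in the libraries 3 labelled KO and WT. The medians of the members in log2(RPKM + 1) were 4.30 and 4.43 in KO and 4.69 and 4.53 in WT libraries 1 and 2, and 4.74 and 4.24 in the libraries 3 labelled KO and WT. Sdc1, the marker of the sort, was at 0.448 and 0.510 in KO and at 0.473 and 0.287 RPKM in WT libraries 1 and 2. The part of plasma cell genes in the difference of the members was not tested.

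**Figure D4:**
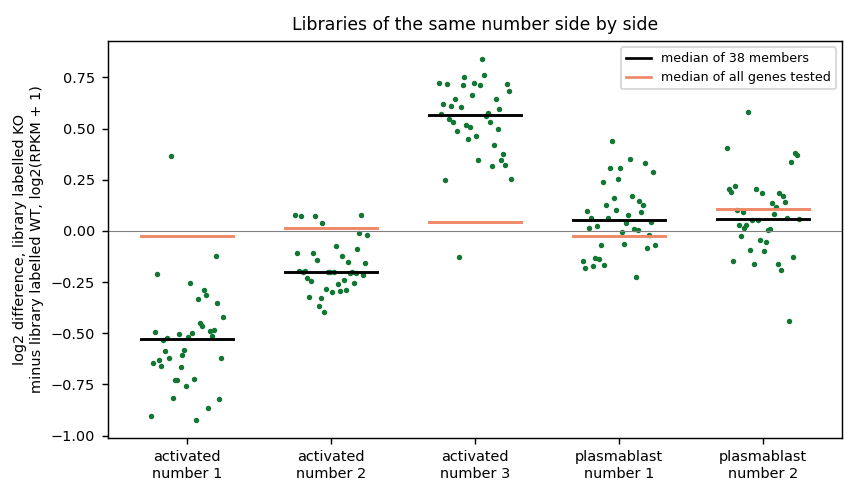
Difference in log2(RPKM + 1) between the library labelled KO and the library labelled WT of the same number (vertical axis) for each of the 38 members (points), in activated cells 1 to 3 and plasmablasts 1 and 2 (horizontal axis), with the median of the members in black and of all genes tested in orange. The members' median is -0.53 and -0.20 in activated libraries 1 and 2, 0.57 in libraries 3, and 0.05 and 0.06 in the plasmablasts.

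No member was called between KO and WT plasmablasts. With all libraries limma called 0 of 38 members and 0 passed an unadjusted p under 0.05 (0.0% and 0.851% of genes), and 3, Polr1b, Dkc1 and Rrp1b, lay above without overlap (8.22% of genes), with 0 below (5.29%). In that fit 23 of 38 differences were negative, with a median of -0.19 (-0.12 over all genes) and Nhp2 lowest at -1.89 ± 1.36, and the 5 members at 0 reads in KO library 3 had the 5 lowest differences. Without KO library 3 and the activated libraries 3, again none was called (0.071% of genes), 1 passed an unadjusted p under 0.05 (Ppan; 5.96% of genes), the median was 0.07 (0.04 over all genes), and the differences ran from -0.09 for Wdr12 to 0.33 for Ppan. Npm1 was at 46.7 and 53.7 in KO and at 51.4 and 50.4 RPKM in WT libraries 1 and 2, and Fbl at 19.0 and 21.5 against 21.6 and 18.5. These groups overlapped. Ppan was at 25.2 and 23.5 in KO against 20.4 and 18.0 in WT (0.33 ± 0.12, limma adjusted p = 0.743) and Polr1b at 6.55 and 5.27 against 4.56 and 4.44 (0.32 ± 0.15, limma adjusted p = 0.826), both above without overlap, as were 11 members in all (19.3% of genes). A p above the threshold does not show that the genotypes are alike.

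Whether the KO difference itself changed between the states was tested as an interaction. It called 0 of 38 members by limma with all libraries (0 at an unadjusted p under 0.05; 0.0% of genes called) and 0 without the 3 libraries (0.0304% of genes called). With all libraries 21 of 38 differences were negative, with a median of -0.08 (-0.13 over all genes). Without the 3 libraries the direction turned, and 37 of 38 differences were positive, that is, KO against WT was higher in plasmablasts than in activated cells, with a median of 0.45 (0.04 over all genes). At an unadjusted p under 0.05, 18 members passed (7.63% of genes), with Polr1b at 0.85 ± 0.21 and Ppan at 0.72 ± 0.18, both at a limma adjusted p of 0.313. The medians of the members from activated cells to plasmablasts were -0.36 in KO and -0.81 in WT in the same fit, and these comparisons share the libraries of the interaction.

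Naive cells gave no call in the members. Over both guides 0 of 38 were called by limma (1.88% of genes) and 5 passed an unadjusted p under 0.05 (Nop14, Nop2, Ncl, Wdr12 and Nop58; 12.7% of genes), with 32 of 38 higher in KO and a median of 0.16 (-0.02 over all genes). No member was separated over all 12 libraries (0.927% of genes lay below and 0.957% above). For guide 1 the median was 0.23 with 4 members, Myc, Ncl, Noc3l and Nop14, above without overlap (7.68% of genes). There limma called 0 members (1.11% of genes), with 4 at an unadjusted p under 0.05 (Noc3l, Nop14, Polr1b and Ncl; 15.7% of genes). For guide 2 the median was 0.10, with 9 members above (7.33%) and 1, Noc3l, below (6.44%), and limma called 0 (0.0296% of genes) with 1 at an unadjusted p under 0.05 (Nop2; 4.2% of genes). For the difference between the guides limma called 0 members (0.0% of genes), with 1 at an unadjusted p under 0.05 (Noc3l, -0.90 ± 0.25; 4.73% of genes).

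The higher median with guide 1 rested on 1 library, guide 1 KO library A, without which it was 0.00. Library A of guide 1 KO was above arm 1 WT library A in 34 of 38 members, by a median of 0.71, whereas libraries B were higher in 16 of 38 and libraries C in 22. Pes1 was at 108, 39.7 and 43.0 RPKM in guide 1 KO libraries A to C and at 42.0, 49.7 and 47.5 in arm 1 WT. Rcl1, a factor of small subunit processing, was at 66.6, 18.4 and 16.5 against 22.025, 19.1 and 15.8, and Srm at 86.2, 24.3 and 31.4 against 29.3, 31.9 and 29.2. In these 3 genes library A stood far above libraries B and C of its group, whereas B and C were at or near the WT levels. Markers of macrophages and monocytes (7 of 10 listed), cells that the CD11b-F4/80- gate should remove, summed to 36.2 RPKM in that library and to 5.17 to 14.9 in the other naive libraries. Of the erythroid markers 1 of 5, Hba-a1, was listed, at 12.96 RPKM in that library and at most 3.30 in the others. The part of these cells in the higher levels was not tested. Without this library and arm 1 WT library A the median over both guides was 0.06, with 26 of 38 higher, and 0 members were called by limma (3.36% of genes) with 3 at an unadjusted p under 0.05 (Mdn1, Nop14 and Dkc1; 17.5% of genes). For guide 1 the median was then 0.02, and again 0 members were called (1.79% of genes).

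Myc was the member with the highest naive difference over both guides. It was at 25.5, 21.8 and 43.6 RPKM in guide 1 KO and at 21.2, 20.5 and 18.1 in arm 1 WT libraries, and the KO libraries lay above the WT libraries. With guide 2 it was at 48.9, 25.1 and 16.7 against 26.7, 20.4 and 18.0, and here they overlapped. The difference over both guides was 0.43 ± 0.23 (limma adjusted p = 0.467), and 0.50 ± 0.25 (limma adjusted p = 0.333) without the 2 libraries A. Mdn1 without these libraries was at 0.62 ± 0.16 (limma adjusted p = 0.0554), at 3.56 and 5.28 RPKM in guide 1 KO libraries B and C against 2.05 and 1.35 in WT, whereas library A had 0.459. Heatr1, a small subunit factor, was at 6.12, 23.4 and 18.7 in guide 1 KO against 12.6, 9.56 and 11.3 in arm 1 WT and, with guide 2, at 10.5, 10.1 and 13.1 against 12.6, 13.95 and 21.6. The difference between the guides was not called (-0.77 ± 0.52 with all libraries and -1.39 ± 0.30 without the libraries A, limma adjusted p = 0.918 and 0.380). Heatr1 was called higher with guide 1 when library A of the KO alone was left out (0.86, limma adjusted p = 0.0463; 1.22% of genes). Of the MYC network, Max was called higher over both guides (0.62, limma adjusted p = 0.0419), and also without the libraries A (0.51, limma adjusted p = 0.0410).

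**Figure D5:**
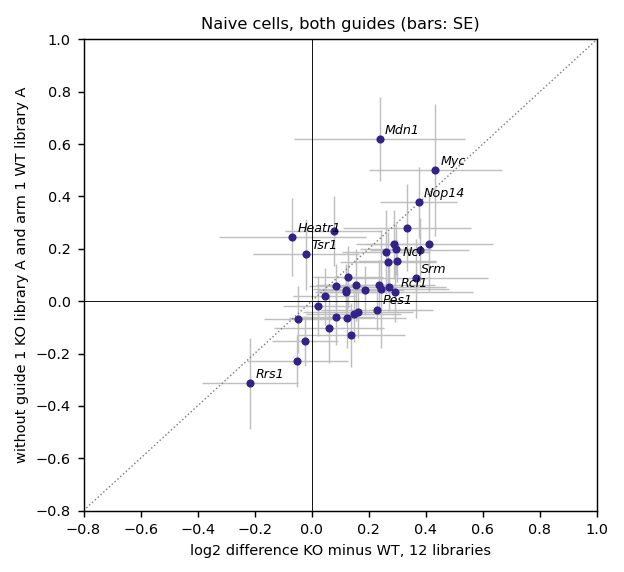
KO minus WT difference in log2(RPKM + 1) over both guides in naive cells for the 38 members, with all 12 libraries on the horizontal axis and without guide 1 KO library A and arm 1 WT library A on the vertical axis, bars of 1 SE and a dotted line of equality. Most points lie below the line, as the median falls from 0.16 to 0.06, while Mdn1 and Myc (0.62 and 0.50 on the vertical axis) lie above it.

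The members with and without the E-box hexamer in the printed windows did not stand apart in the plasmablast comparison. Without the 3 libraries, the 7 members with CACGTG had a median WT difference of -0.73 (from -1.23 for Mybbp1a to -0.30 for Mdn1), and the other 31, which include the 7 with no window, had -0.87. In KO cells the medians were -0.24 and -0.38, and in activated KO against WT cells -0.44 and -0.38. These are descriptions of 7 genes with a match, and of MYC sites only CACGTG and CACGCG were searched.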

How the data were processed

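The deposited values are RPKM, computed by the authors per gene and rounded to 3 decimals, in 1 table of 12 naive and 1 of 11 cultured libraries. The submitters' processing notes name STAR and the mm10 build, and versions, counting tool, annotation and strand setting are not given in the sources used here. Groups came from the labels. Values were analysed as log2(RPKM + 1), which understates changes of low genes, for genes at 1 RPKM or more in at least 2 libraries (10137 naive, 9986 cultured). R 4.3.3 with limma 3.58.1 fitted a mean per group and table, with a trend in the spread. Adjusted p-values are two-sided, by Benjamini and Hochberg over all genes of a table, and a call is one under 0.05. Depth was estimated from the reads that low RPKM values step by. Coordinates and start-site windows are from RefSeq. Exons and genes that overlap on the opposite strand are from GENCODE.

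The rule for the members uses no measured value, but both the members and the pathway lists were chosen with earlier results of these data known. Values by library are given for Myc, for the member of each role with the highest mean RPKM over all libraries, and for the 3 highest and 3 lowest differences of comparisons with more than 10 calls. Npm1, Mybbp1a and Fbl in the KO comparisons, and Rcl1, Mdn1 and Heatr1 in naive cells, were shown after their values were seen. Alternatives were another pseudocount, filters, median scaling of the libraries, no trend, a replicate block, fits of fewer groups and left-out libraries.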

Additional observations from a re-analysis of the deposited data

How the results depend on the processing

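The number of members called depended on plasmablast KO library 3 and on which libraries shared a spread. In WT plasmablasts against activated cells it was 0 with all libraries (1.76% of genes) and 34 without the 3 libraries in doubt (46.3%). With median scaling of those left it was 32. Counts over all genes after median scaling follow in the next paragraph. With the libraries labelled WT alone, activated library 3 among them, it was 30 (28 lower, 2 higher; 20.5% of genes lower, 11.9% higher). Leaving out 1 library at a time gave 0 to 27, with 27 lower without plasmablast KO library 3 (21.4% of genes) and 1 (Dkc1) without activated WT library 3. In KO cells the number of members called was 0 with all libraries (3.44% of genes), 1 with median scaling (Npm1) and 16 without the 3 libraries (33.6%). Median scaling of those left, a setting chosen after seeing the data, gave 13. Leaving out 1 library at a time gave 0 to 15, with 15 lower without plasmablast KO library 3 (18.5% of genes). With guide 1 in naive cells, leaving out 1 library gave 0 to 1. The other 6 comparisons gave 0 members in every setting run.

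The median of the members in activated KO against WT cells was -0.05 and ranged from -0.26 without KO library 3 to 0.11 without KO library 1. Median scaling moved the median of all genes from -0.12 to 0.00 in WT and from -0.22 to 0.03 in KO plasmablasts against activated cells, and that of the members from -0.71 to -0.59 and from -0.67 to -0.43. Over all genes it changed 33 higher and 143 lower calls to 116 and 162 in WT, and 77 and 267 to 160 and 222 in KO. Without the 3 libraries it changed 1533 and 3032 to 2299 and 2176 in WT and 1197 and 2121 to 1697 and 1701 in KO. A pseudocount of 0.1, other filters and no trend called 0 members. A replicate block on the library number or letter called 0 members in each comparison. Deviations from the group means had r from -0.243 to 0.254 between libraries of the same number or letter, with 1 of 15 cultured and 1 of 6 naive pairs over 0.1. Deviations within a group of 2 or 3 libraries sum to 0, so these r cannot show whether such libraries share an origin. Depth limits plasmablast KO library 3, where a member at 0 reads may be at 3 reads.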
